A study of Mus musculus with 15 samples.

Results

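In mouse embryonic fibroblasts that express EZHIP, 449 of 902 EZH2 peaks carried H3K27me3 and no FLAG, and these 449 peaks are the subject of what follows. They were selected by overlap of the deposited peak lists from chromatin immunoprecipitation and sequencing: each EZH2 peak shared at least 1 bp with an H3K27me3 peak and no bp with any FLAG peak. Membership therefore rests on the measured H3K27me3 and FLAG calls, and the presence of the one and the absence of the other are not findings. The remaining EZH2 peaks were 410 with FLAG, all of which also had H3K27me3, and 43 with neither signal. The 3 libraries came from cells with floxed EED alleles and stable lentiviral expression of wild-type EZHIP, 1 library for each antibody, and the labels list no drug treatment for them. The FLAG signal is taken here as EZHIP because the series names EZHIP beside EZH2 and H3K27me3 as a profiled target. The labels do not state how the lentiviral protein was tagged. Of the 15 libraries in the series, from 5 cell conditions, the other 12 were not used here. EED loss, tazemetostat and the EZHIP variant therefore enter no comparison.

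EZH2 is the catalytic subunit of Polycomb repressive complex 2 (PRC2), which methylates lysine 27 of histone H3. EED, another core subunit, binds H3K27me3 that is already present and stimulates the enzyme, which allows the mark to spread outward from the sites where PRC2 is recruited, often CpG islands of developmental genes. EZHIP binds PRC2 and inhibits it, and in cells that express EZHIP the mark is lost from broad regions and kept at such sites.

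The lists hold intervals and no scores, which leaves depth and signal strength unknown, and a site without a FLAG peak is one where no FLAG interval was called. In the same way, methylated sequence below is sequence inside a called H3K27me3 interval, and bases outside one are uncalled. With 1 library per antibody there is no spread between replicates, so no p-value is given and differences below are descriptions of these lists. Intervals around shares are exact Clopper-Pearson 95% intervals and cover counting error only, with neighbouring peaks treated as independent. Coordinates are in build mm9, counted from 1. Gene annotation and sequence of that build were not used here, so peaks are named by position.

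The EZH2 peaks without FLAG were mostly short. Their EZH2 widths ran from 2199 to 46399 bp, with a median of 3799 bp and an interquartile range of 2799 to 4799 bp. Of the 449, 363 were under 5 kb, 68 lay between 5 and 10 kb, and 18 were 10 kb or more. The narrowest width, 2199 bp, was also the floor of the whole EZH2 list and was shared by 25 of them. By length the 449 peaks made up 1990951 of 6222498 bp, or 32.0% of the EZH2 intervals. EZH2 peaks with FLAG were wider, with a median of 7799 bp (5999 to 11399 bp) and a narrowest peak of 3599 bp. FLAG-free peaks below that width numbered 201, and 248 were at least as wide. Only 28 were wider than the median FLAG-carrying peak.

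EZH2 peaks with H3K27me3 and no FLAG were the majority below 5 kb and a minority above. They made up 149 of 179 EZH2 peaks under 3 kb (83.2%), 117 of 128 between 3 and 4 kb (91.4%) and 97 of 136 between 4 and 5 kb (71.3%). Between 5 and 7.5 kb the share was 55 of 202 (27.2%), and between 7.5 and 10 kb it was 13 of 107 (12.1%). Above that, 12 of 72 between 10 and 15 kb (16.7%), 3 of 38 between 15 and 20 kb (7.89%) and 3 of 40 at 20 kb or more (7.50%) were of this kind. The step between 4 and 7.5 kb is where the 2 kinds of EZH2 peak exchange places. FLAG and H3K27me3 calls both set these shares, so they describe the selection.

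**Figure D1:**
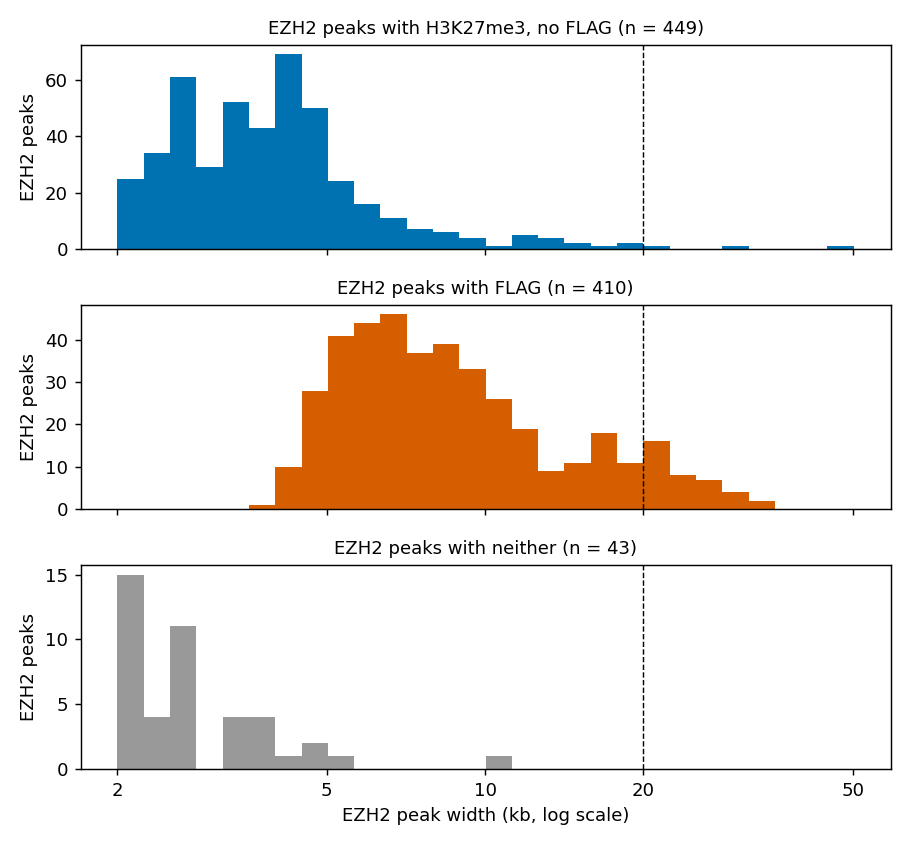
Width of EZH2 peaks (kb, log scale) against the number of peaks, for the 449 with H3K27me3 and no FLAG, the 410 with FLAG and the 43 with neither. The dashed line is 20 kb: 3 peaks without FLAG and 37 with FLAG lie at or past it.

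Only 3 EZH2 peaks without FLAG were 20 kb or wider. The widest spanned 46399 bp at chr9:91245601-91291999. A peak of 29599 bp lay at chr1:63292201-63321799 and one of 20999 bp at chr13:117084001-117104999. Together they held 96997 bp, or 4.87% of all bases in the 449 peaks. The next in width stood just outside the limit, at 19999 bp (chr2:74517601-74537599), and would count as 20 kb if the end position were read as the last base of the interval. It was followed by peaks of 18199 bp (chr14:63857601-63875799) and 16999 bp (chr15:102777801-102794799). At the other end, 3 of the 25 peaks of 2199 bp were chr1:182412001-182414199, chr11:3660801-3662999 and chr11:101824401-101826599.

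H3K27me3 filled the 3 wide peaks almost from end to end. On chromosome 9 it covered all 46399 bp, since the H3K27me3 interval of 59599 bp began 200 bp before the EZH2 peak and ended 13000 bp after it. That interval also held a second EZH2 peak of 6799 bp, 2801 bp away and likewise without FLAG. On chromosome 1 the H3K27me3 interval of 27999 bp stopped 800 bp short of the EZH2 peak on both sides and covered 94.6% of it. On chromosome 13 the H3K27me3 interval of 20799 bp was level with the EZH2 peak on the left and 200 bp short on the right, covering 99.05%. The peaks on chromosomes 1 and 13 were the only EZH2 peaks in their H3K27me3 intervals. The 3 wide peaks were thus covered over 94.6, 99.05 and 100% of their length, and over 98.1% of their summed bases.

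FLAG was far from all 3. The nearest FLAG peak lay 3.30 Mb from the wide peak on chromosome 13, 8.48 Mb from that on chromosome 9 and 11.6 Mb from that on chromosome 1. The wide peak on chromosome 1 also had no other EZH2 peak within 9.26 Mb, the largest such gap among the 449. On chromosome 13 the nearest other EZH2 peak was 393.6 kb away. The peaks of 19999 and 18199 bp just under the limit differed in this respect. The one on chromosome 2 had a FLAG peak at 19.8 kb and the one on chromosome 14 at 10.4 kb, in both cases on another EZH2 peak in the same H3K27me3 interval. The 16999 bp peak on chromosome 15 had its nearest FLAG peak at 2.07 Mb.

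**Figure D2:**
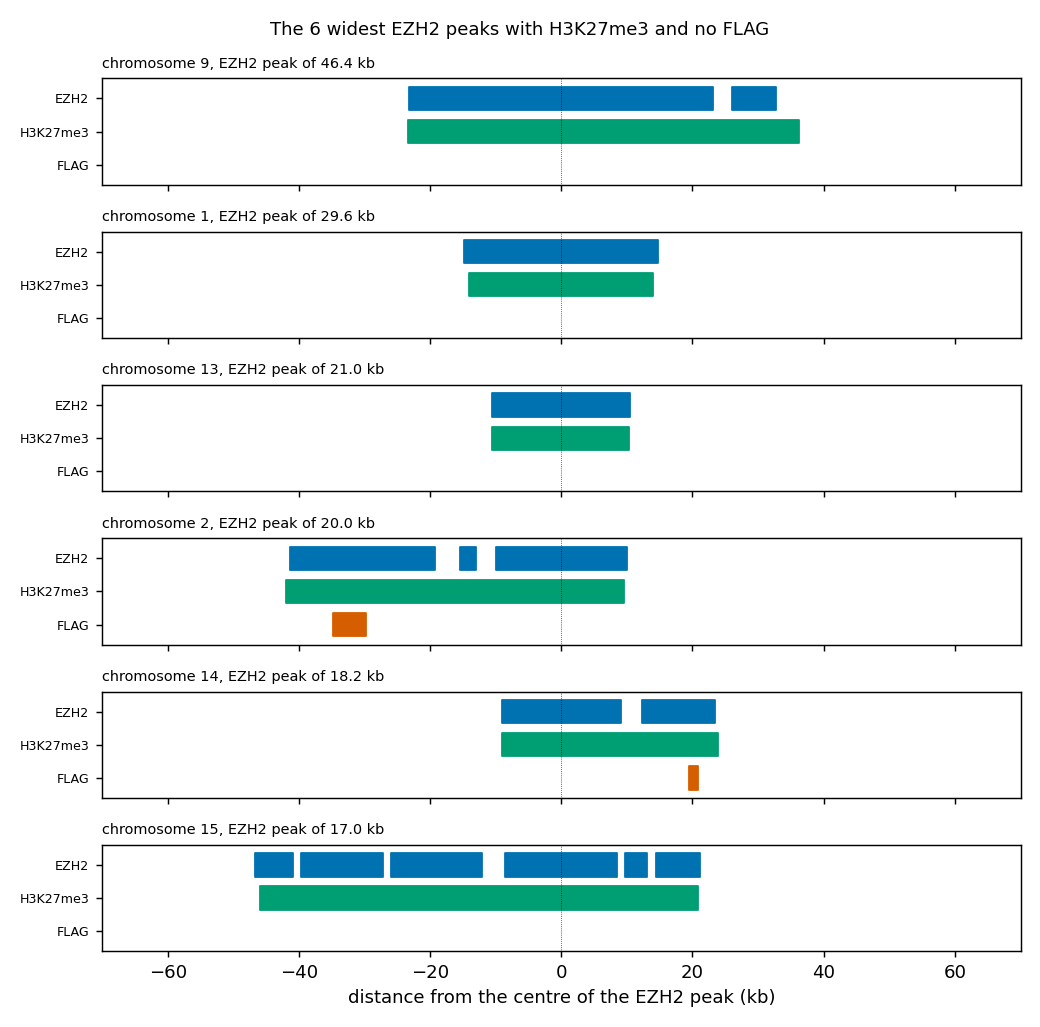
Intervals of the 3 lists around the 6 widest EZH2 peaks without FLAG, as distance in kb from the centre of the EZH2 peak. FLAG intervals appear only in the rows of chromosomes 2 and 14, on neighbouring EZH2 peaks under the same H3K27me3 interval.

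The shorter peaks were covered less completely, but median coverage between 10 and 20 kb was as high as in the 3 wide ones. Among the 446 under 20 kb, H3K27me3 covered a median of 82.2% of the EZH2 peak (interquartile range 64.3 to 93.3%) and as little as 11.1%. At 380 of them, or 85.2% (81.6 to 88.4%), it covered 50% or more of the peak, and it covered 79.6% of their summed bases. Median coverage was 71.4% under 3 kb, 83.3% between 3 and 4 kb, 85.7% between 4 and 5 kb, 85.3% between 5 and 7.5 kb and 89.1% between 7.5 and 10 kb. It was 100% among the 12 peaks between 10 and 15 kb and the 3 between 15 and 20 kb, beside 99.05% for the 3 wide ones. Between 10 and 15 kb the lowest coverage was 24.2%. Only 5 of these 12 peaks, 0 of the 3 between 15 and 20 kb and 2 of the 3 wide ones were alone in their H3K27me3 interval. The median stretch of EZH2 without H3K27me3 did not fall steadily. It was 800, 600, 600, 800 and 1000 bp in the 5 classes below 10 kb, 0 bp in both classes between 10 and 20 kb, and 200 bp at 20 kb or more. Positions lie on a grid of 200 bp, so in the narrowest class a single step is already several percent of a peak.

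Peaks with low coverage carried very short H3K27me3 intervals. In 66 of the 449 peaks, or 14.7% (11.6 to 18.3%), under 50% of the EZH2 interval lay in a called H3K27me3 interval. Of these 66, 55 had an EZH2 width under 4 kb and 59 had an H3K27me3 interval under 2 kb. The smallest H3K27me3 overlap was 399 bp, found at 10 peaks and equal to the narrowest H3K27me3 interval in the list. The least covered were chr13:78318201-78321799, chr7:56214001-56217199 and chr18:25836201-25839199, with 399 bp of H3K27me3 in EZH2 peaks of 3599, 3199 and 2999 bp, or 11.1, 12.5 and 13.3%. A wide exception was the 12399 bp peak at chr3:17686001-17698399, chosen after its value was seen, where H3K27me3 spanned 2999 bp, or 24.2%. Just outside the rule, the 43 EZH2 peaks with neither signal had a median width of 2599 bp. Their nearest H3K27me3 interval was never closer than 6201 bp, so none of the 43 failed the H3K27me3 criterion by a few grid steps.

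**Figure D3:**
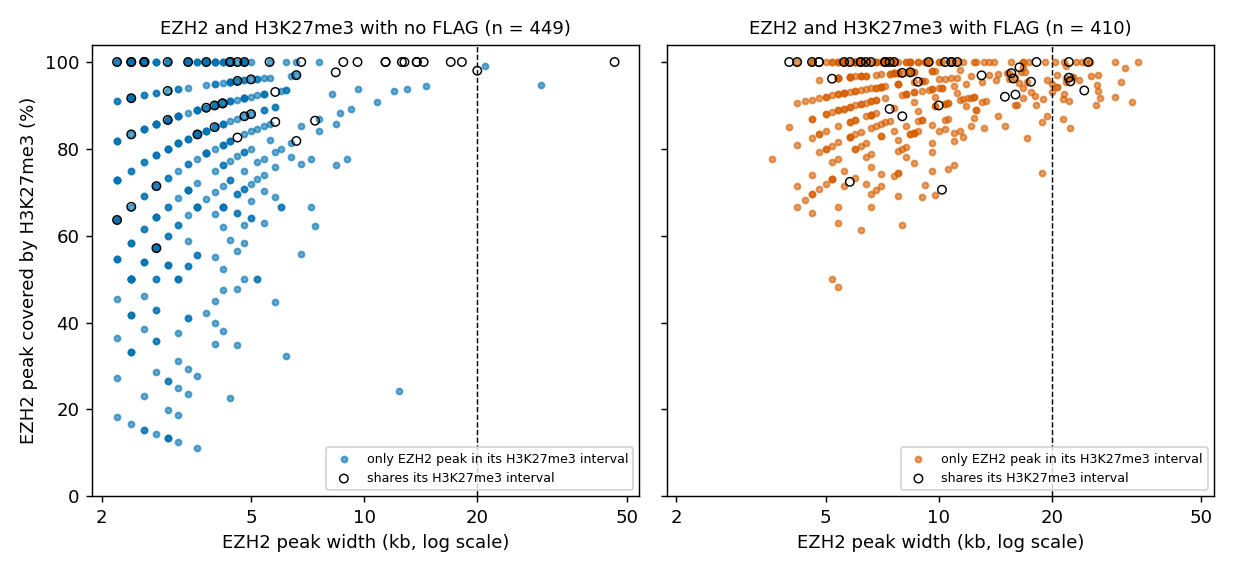
EZH2 peak width (kb, log scale) against the percent of the peak covered by H3K27me3, for the 449 peaks without FLAG and the 410 with FLAG. Open circles share an H3K27me3 interval with another EZH2 peak, the dashed line is 20 kb, and values under 50% number 66 without FLAG and 2 with FLAG.

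EZH2 peaks with FLAG had higher percent coverage, and were also wider. Their median was 93.3% (86.2 to 97.9%) against 82.3% (64.3 to 93.5%) for all 449 without FLAG, and 2 of 410 against 66 of 449 were covered over less than 50%. The stretch of EZH2 without H3K27me3 had the same median, 600 bp, and the same quartiles, 200 and 1200 bp, in both groups. Between 4 and 5 kb the median coverage was 85.7% without FLAG (97 peaks) and 87.0% with FLAG (36 peaks). Between 5 and 7.5 kb it was 85.3% (74.96 to 93.4%, 55 peaks) and 92.9% (84.9 to 100%, 146 peaks). Between 7.5 and 10 kb it was 89.1% (13 peaks) and 93.7% (94 peaks). In the wider classes the order was the opposite. The medians were 100% without FLAG (12 peaks) and 91.9% with FLAG (59 peaks) between 10 and 15 kb, 100% (3 peaks) and 95.5% (35 peaks) between 15 and 20 kb, and 99.05% (3 peaks) and 96.3% (37 peaks) at 20 kb or more. In these 3 classes 5 of 12, 0 of 3 and 2 of 3 peaks without FLAG were alone in their H3K27me3 interval. With FLAG it was 52 of 59, 29 of 35 and 32 of 37. Among single peaks of 10 kb or more the median was 93.8% without FLAG (7 peaks) and 94.2% with FLAG (113 peaks). The opposite order was thus not seen among single peaks. Among single peaks under 10 kb the median was 79.3% without FLAG (389 peaks) and 91.7% with FLAG (255 peaks). The former include peaks narrower than any with FLAG. Median coverage was thus higher with FLAG in each class between 4 and 10 kb, and not in the classes of 10 kb or more. The classes were set after the values were seen. H3K27me3 intervals under 2 kb accompanied 113 of 449 peaks without FLAG, or 25.2% (21.2 to 29.4%), and 0 of 410 with FLAG (exact upper bound 0.896%). No EZH2 peak with FLAG was narrower than 3599 bp, so below that width there is no FLAG-carrying peak to compare. H3K27me3 intervals under 2 kb also occurred on FLAG-free peaks above that width. Of the 248 FLAG-free peaks of at least 3599 bp, 231 (93.1%) were covered over 50% or more, beside 408 of 410 (99.5%) with FLAG. The share of intervals under 2 kb at matched EZH2 width was not tested.

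Where a peak without FLAG stood alone in its H3K27me3 interval, that interval was mostly narrower than the EZH2 peak. The 2 lists have unlike floors of width, 2199 bp for EZH2 and 399 bp for H3K27me3, and the peak calling is not given. How far calling sets the widths and edges below was not tested. In 396 of the 449 the EZH2 peak was the only one in its H3K27me3 interval. There H3K27me3 was narrower than EZH2 at 306, equal at 23 and wider at 67, and the median width ratio was 0.812 (interquartile range 0.625 to 0.953). The median offset of the H3K27me3 edge from the EZH2 edge was -400 bp, with the minus sign for inside (-800 to 0 bp, 792 edges). For the 368 FLAG-carrying peaks alone in an H3K27me3 interval, H3K27me3 was also mostly narrower, at 247, with 29 equal and 92 wider. Their ratio was 0.941 (0.861 to 1.00) and their offset -200 bp (-600 to 0 bp, 736 edges), a difference of 1 grid step. Widths of the EZH2 peak and its H3K27me3 interval ran together among the 396 (Spearman's rho 0.75, over peaks of a single pair of libraries, as a description). H3K27me3 was close to centred on EZH2, with a median distance of 200 bp between the midpoints (100 to 400 bp).

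**Figure D4:**
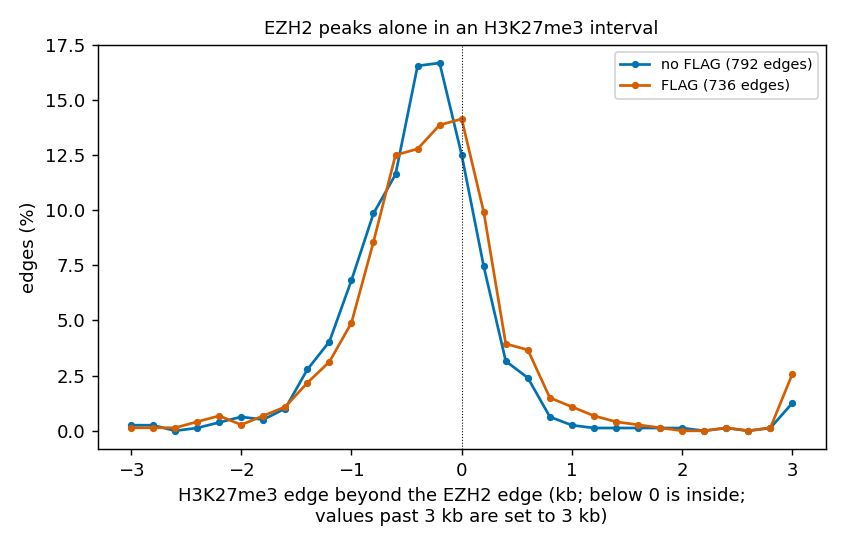
Offset of each H3K27me3 edge from the EZH2 edge (kb, values below 0 lie inside the EZH2 peak) against the percent of edges, for EZH2 peaks alone in an H3K27me3 interval. Medians are -400 bp for 792 edges without FLAG and -200 bp for 736 edges with FLAG.

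The left and right edges gave similar counts. Over all 449 peaks the left H3K27me3 edge lay inside EZH2 at 294 (65.5%), level at 59 and outside at 96, and the right edge lay inside at 298 (66.4%), level at 46 and outside at 105. Both edges fell inside at 221 peaks (49.2%), 1 edge at 150 (33.4%), and both fell outside at 41 (9.13%). Among the 410 FLAG-carrying peaks the left edge lay inside at 57.6% and the right edge at 57.3%. Both edges fell inside at 38.3% of these, 1 edge at 38.3%, and both fell outside at 10.0%. Edges inside EZH2 were therefore also the more frequent with FLAG. The EZH2 interval was wholly inside H3K27me3 at 78 of 449 peaks without FLAG, or 17.4% (14.0 to 21.2%), beside 19.3% of all 902 EZH2 peaks. H3K27me3 passed an EZH2 edge by more than 5 kb at 56 of the 449, or 12.5% (9.56 to 15.9%), beside 12.0% of all 902. Both shares were near those of the whole list.

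Whole coverage was most frequent where a long H3K27me3 interval took in several EZH2 peaks. Such an interval held 53 of the 449 peaks, or 11.8% (8.97 to 15.2%), beside 10.5% of all 902 EZH2 peaks. Of the 53, 27 (50.9%, 36.8 to 64.9%) were wholly inside H3K27me3, whereas 51 of the 396 single ones were (12.9%, 9.74 to 16.6%). An interval that reaches several EZH2 peaks must cover the facing edges of the outer ones and any inner peak whole. This contrast is therefore partly fixed by geometry. Among peaks without FLAG of 10 kb or more, 11 of 18 shared their H3K27me3 interval (61.1%, 35.7 to 82.7%), against 42 of 431 narrower ones (9.74%, 7.11 to 12.9%). FLAG-carrying peaks of 10 kb or more shared it in 18 of 131 cases (13.7%, 8.35 to 20.8%). The 10 kb limit was set after the values were seen, since 20 kb leaves 3 peaks. The 7 FLAG-free peaks of 10 kb or more that stood alone had a median coverage of 93.8%, from 24.2 to 99.05%, against 79.3% for the 389 narrower ones that stood alone. None of the 7 was wholly inside H3K27me3. The 113 single FLAG-carrying peaks of 10 kb or more had a median coverage of 94.2%.

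The longest chain of EZH2 peaks without FLAG was on chromosome 15. Between 102740401 and 102807199, 1 H3K27me3 interval of 66799 bp held 6 EZH2 peaks, from 3399 to 16999 bp wide, which filled 87.1% of it and had gaps as small as 1201 bp. The 4 inner peaks were necessarily wholly inside the methylated interval, and the 2 outer ones were covered over 86.2 and 97.0%. None carried FLAG, and the nearest FLAG peak lay more than 2 Mb away, at 2.04 Mb from the first of them. When EZH2 peaks with gaps of up to 5 kb were joined, this chain became a FLAG-free EZH2 peak of 67799 bp, wider than the other 3 of 20 kb or more. The joined pair on chromosome 9 then spanned 55999 bp.

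Other chains had more methylated sequence between the EZH2 peaks. On chromosome 11 from 96030401 to 96065399, 34999 bp of H3K27me3 held 3 EZH2 peaks of 12799, 3799 and 2399 bp that filled 54.3% of the interval. On chromosome 6 from 52183801 to 52216599, 3 short EZH2 peaks of 2599, 2999 and 2399 bp filled only 23.8% of 32799 bp of H3K27me3, leaving 25002 bp without EZH2. The chains with 3 or more such peaks were chosen after their values were seen. In all, 12 H3K27me3 intervals held 2 or more EZH2 peaks without FLAG, 30 peaks together, and 9 of the 12 held exactly 2. The smallest gaps between EZH2 peaks leave it unknown how many of these chains are 1 site that the peak calling divided.

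A small group without FLAG stood beside FLAG under the same methylated interval. These were 27 of the 449 peaks, or 6.01% (4.0 to 8.63%), in 25 H3K27me3 intervals that each also held at least 1 FLAG-carrying EZH2 peak. Their EZH2 widths ran from 2399 to 19999 bp with a median of 4599 bp, and the nearest FLAG peak lay a median of 12.0 kb away, from 4601 bp to 40.2 kb. All 10 of the 449 peaks with FLAG within 10 kb, and 24 of the 27 with FLAG within 20 kb, were in this group. The nearest to FLAG were chr18:77081201-77087799 at 4601 bp, chr19:6418601-6421199 at 4801 bp and chrX:11704201-11706999 at 5201 bp. On the other side of the rule, the smallest FLAG overlap of an excluded EZH2 peak was 1199 bp. No EZH2 peak therefore met or missed the FLAG criterion by a few bases. In these 25 intervals EZH2 filled a median of 61.3% of the methylated bases (23.1 to 93.2%), and in the 10 intervals with several EZH2 peaks and no FLAG it filled 74.8% (23.8 to 92.9%).

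Most of the peaks without FLAG were far from any FLAG peak. The distance to the nearest one had a median of 1529.8 kb, with quartiles at 368 and 4337 kb. FLAG lay within 50 kb of 42 peaks, within 100 kb of 63 (14.0%, 10.95 to 17.6%) and within 1 Mb of 188 (41.9%, 37.3 to 46.6%). Other EZH2 peaks were nearer, at a median of 469.8 kb (120.4 to 1728 kb). The EZH2 list is longer, with 902 peaks against 438 for FLAG, and includes the FLAG-carrying peaks. That order was thus largely fixed in advance and is no trait of these sites. Another EZH2 peak lay within 100 kb of 108 of the 449 (24.1%, 20.2 to 28.3%), and of 108 of 410 FLAG-carrying peaks (26.3%, 22.1 to 30.9%). The nearest other EZH2 peak had H3K27me3 and no FLAG in 233 cases (51.9%), FLAG in 198 and neither in 18. Peaks of the first kind make up 49.7% of all other EZH2 peaks, so the count was near the background. Where the nearest peak was within 5 kb, the counts were 24, 10 and 0, or 24 of 34 (70.6%) for the first kind beside the same 49.7%. Pairs of neighbours entered from both sides, and all 6 peaks of the chain on chromosome 15 are among the 24. These peaks are thus not separate sites in the count. The farthest from FLAG were 3 neighbours on chromosome 10, chr10:126967601-126973399, chr10:126762201-126764799 and chr10:126516001-126519399, at 36.7, 36.5 and 36.2 Mb. Their EZH2 widths were 5799, 2599 and 3399 bp, with H3K27me3 over 79.3, 38.4 and 100% of them.

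**Figure D5:**
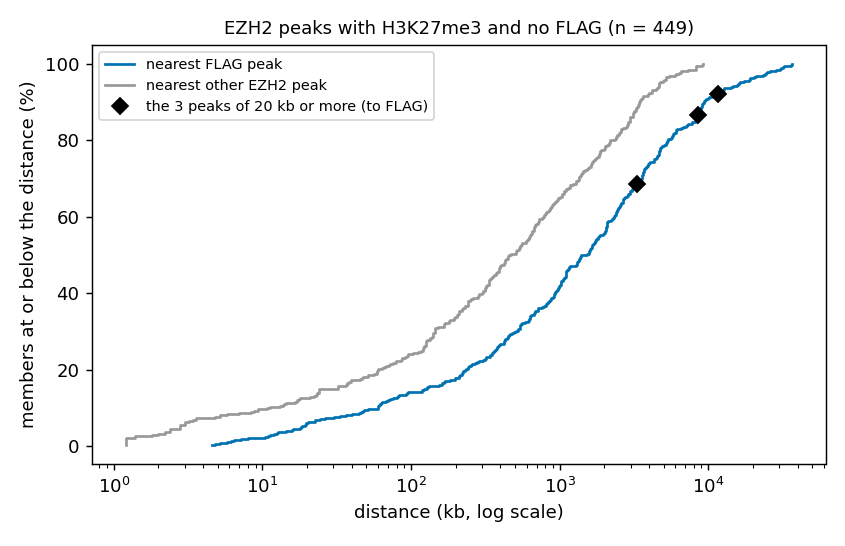
Cumulative percent of the 449 EZH2 peaks without FLAG against distance (kb, log scale) to the nearest FLAG peak and to the nearest other EZH2 peak. Diamonds mark the 3 peaks of 20 kb or more, at 3299, 8475 and 11580 kb from FLAG.

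Long methylated intervals were more common around these sites than long EZH2 peaks. The H3K27me3 interval was 20 kb or more at 41 of the 449 peaks (9.13%, 6.63 to 12.2%), in 28 separate intervals, and 38 of these 41 EZH2 peaks were under 20 kb, with a median of 4999 bp over the 41. Most of these 28 intervals also held a FLAG peak, on another EZH2 peak. FLAG-carrying peaks lay in H3K27me3 intervals of 20 kb or more in 66 of 410 cases (16.1%, 12.7 to 20.02%). Of the 41, 4 were the only EZH2 peak in the interval. These were the wide peaks of chromosomes 1 and 13 and 2 short ones on chromosome 15. At chr15:84274401-84279199 an EZH2 peak of 4799 bp stood in 102199 bp of H3K27me3, which reached 62800 bp beyond it on the left and 34600 bp on the right. At chr15:83608001-83613599 an EZH2 peak of 5599 bp stood near the left end of 25199 bp of H3K27me3. The second longest H3K27me3 interval, 67599 bp, held a FLAG-free EZH2 peak of 4799 bp at chr15:74392201-74396999 and a FLAG-carrying one 38.0 kb from it. A broad H3K27me3 interval with a short EZH2 peak and a broad EZH2 peak with matching H3K27me3 were therefore both found without FLAG.

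The peaks without FLAG lay on all 20 chromosomes of the EZH2 list. They numbered from 4 on chromosome 16 to 46 on chromosome 2. As a share of EZH2 peaks they ran from 9 of 38 on chromosome 19 (23.7%, 11.4 to 40.2%) to 23 of 34 on chromosome 3 (67.6%, 49.5 to 82.6%), against 49.8% of the whole list. The median EZH2 width per chromosome lay between 2999 bp on chromosome 6 and 4399 bp on chromosome 19. The shares reflect FLAG and H3K27me3 calls and so describe the selection. Chromosome 15 held 32 of the peaks, among them the chain of 6 and the 3 longest H3K27me3 intervals on any of the 449.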

How the data were processed

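Peak lists of 3 libraries (EZH2, FLAG and H3K27me3, chromatin from EED-floxed fibroblasts with wild-type EZHIP) were analysed. Per the labels' protocols, cells were fixed, chromatin was digested with micrococcal nuclease to mono-nucleosomes, and 1 library was made per antibody. The submitters' processing notes list build mm9, Bowtie (1.0.0) and deepTools. The peak calling is not given in the sources used here. Deposited lists hold start and end positions in bp, with no score, on a grid of 200 bp.

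Widths are end minus start as deposited. Overlaps, coverage by H3K27me3, edge offsets and edge-to-edge distances were computed in Python 3.11.15 with pandas 2.3.3, numpy 2.4.6 and scipy 1.17.1, after checks on planted intervals. Peaks named are those of 20 kb or more, the 3 next in width, the 3 narrowest, the 3 least covered, those under the 3 longest H3K27me3 intervals, and the 3 nearest to and farthest from FLAG. The members, lists and limits were chosen with earlier results of these data known. The reference tables are of another build, so genes, gene lists, base composition and sequences were left out.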

Additional observations from a re-analysis of the deposited data

How the results depend on the processing

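The count of 449 peaks was 448 when 50% of the smaller peak had to be shared, 447 with no FLAG within 5 kb, 424 with EZH2 peaks joined and 336 when only H3K27me3 peaks above their lower quartile of width counted. The 3 wide peaks became 18 at 10 kb, 6 at 15 kb and 1 at 30 kb. They became 4 with EZH2 peaks within 5 kb joined, and 41 when the H3K27me3 interval had to be 20 kb, an alternative added after the data were seen. Leaving out chromosomes 5 and 7, which hold none of the 3, could not change this count. At least 50% was covered in 85.3% of peaks, in 97.9% without the short H3K27me3 peaks, which removes poorly covered peaks by construction, and in 93.1% of those at least as wide as the narrowest FLAG-carrying peak, also added after the data were seen. The share with FLAG within 100 kb was 14.0% by edges and by midpoints. Alternatives on genes, gene lists and base composition were not run, for want of mm9 annotation and sequence. No paired analysis was possible because each group has 1 library. Without scores, depth and replicates, a weak FLAG signal and its absence could not be told apart.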
